A study of Homo sapiens with 48 samples.

Results

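The mildest oxygen reduction applied to 22Rv1 cells, 5% O2, was examined on 4 of the 48 arrays of the study, chosen by their labels alone. They were 2 arrays of cells held at 5% O2 (replicates 1 and 2) and the 2 normoxia arrays labelled as the controls of that level. 22Rv1 is a human prostate cancer line derived from the CWR22R xenograft. Cells of both groups grew in RPMI-1640 with fetal bovine serum, and the low oxygen group spent 24 h at 37 °C in a hypoxia chamber, while normoxia was 95% air. The whole study also held 22Rv1 at 2, 1, 0.5, 0.2 and 0% O2 and PC-3, a second prostate cancer line, at the same 6 levels, each with its own normoxia arrays and 2 replicates per group. The question was which hypoxia genes already moved at this mild level. The labels do not say that the replicates were separate cultures, so p-values measure only the spread between these arrays, and each group was 1 cell line with no second clone.

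Cells read oxygen through the prolyl hydroxylases (EGLN genes), which mark the alpha subunits of the hypoxia-inducible factors (HIF) for destruction by the VHL ubiquitin ligase when oxygen is ample. When oxygen falls, HIF alpha is stabilised at the protein level, pairs with ARNT and binds short DNA elements near its targets. Those targets raise glucose uptake and glycolysis, export lactate, remove mitochondria, slow growth signalling and modify collagen. A transcript array reads the targets but not the stability of the HIF proteins.

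Between 14386 and 16002 of the 47323 probes were detected on the 4 arrays (detection p under 0.01), and 16438 gene symbols were tested, of which 10526 were detected on all 4. Values are normalized log2 intensities, and a change is the mean of the 2 arrays at 5% O2 minus the mean of their 2 normoxia arrays, with the standard error (SE) of a limma model fitted to all 48 arrays. A gene passed when its p-value, adjusted by the Benjamini-Hochberg method over all genes, was under 0.05. Of 11 epithelial and prostate markers, 10 were detected on 4 of 4 arrays, among them KRT8, KRT18, KRT19, EPCAM, CDH1, KLK2, HOXB13 and TMPRSS2, and KLK3 was not among the genes that passed the detection filter. KLK2 was detected on 0 of the 4 PC-3 arrays of that level. Among markers of other cells, PECAM1 and COL1A1 were detected on 0 of 4 arrays, and ALB on 4 of 4 (6.36 to 7.55). Since each array read the RNA of a whole culture, fewer responding cells and less RNA per cell cannot be told apart.

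At 5% O2, 15 genes passed the threshold, 0.0913% of the genes tested. Of these, 14 rose (0.0852%) and 1 fell (0.00608%). A list of 40 known HIF target genes, 38 of them among the 16438 tested, was chosen with earlier results of these data known. It held 12 of the 14, which is given as a description. The 12 were glycolytic enzymes and their regulators (PFKFB4, PFKFB3, PGK1, ALDOC), lactate handling genes (LDHA, SLC16A3), the mitophagy receptors BNIP3 and BNIP3L, the growth brake DDIT4, the repressor BHLHB2, the collagen enzyme P4HA1 and ANKRD37. The metallothionein MT3 rose as well. All 15 passed in the same direction at 2, 1, 0.5, 0.2 and 0% O2 as well. With the replicate number as a block, 50 genes passed, 44 higher (0.268%) and 6 lower (0.0365%), all 15 among them.

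The count rested on the other groups of the study for its estimate of the spread. No gene passed when only the 4 arrays were fitted (787 at an unadjusted p under 0.05, against 728 with all arrays), with the submitters' normalized table (515), or with the labels of 2 arrays of 0.2% O2 exchanged (542). The submitters' table itself holds those 2 arrays under exchanged labels, so its result does not separate the normalization from the labels. The array at 5% O2 of replicate 1 carried the larger response: all 14 rises were larger in the replicate 1 pair, and without that array 3 of the 15 passed (BNIP3, PFKFB4 and LDHA), against 13 without the array of replicate 2. That array had the fewest probes detected of the 4 (14386) and the lowest median intensity (86.4, against 92.2 to 109), and the part of this in the larger response was not tested.

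**Figure D1:**
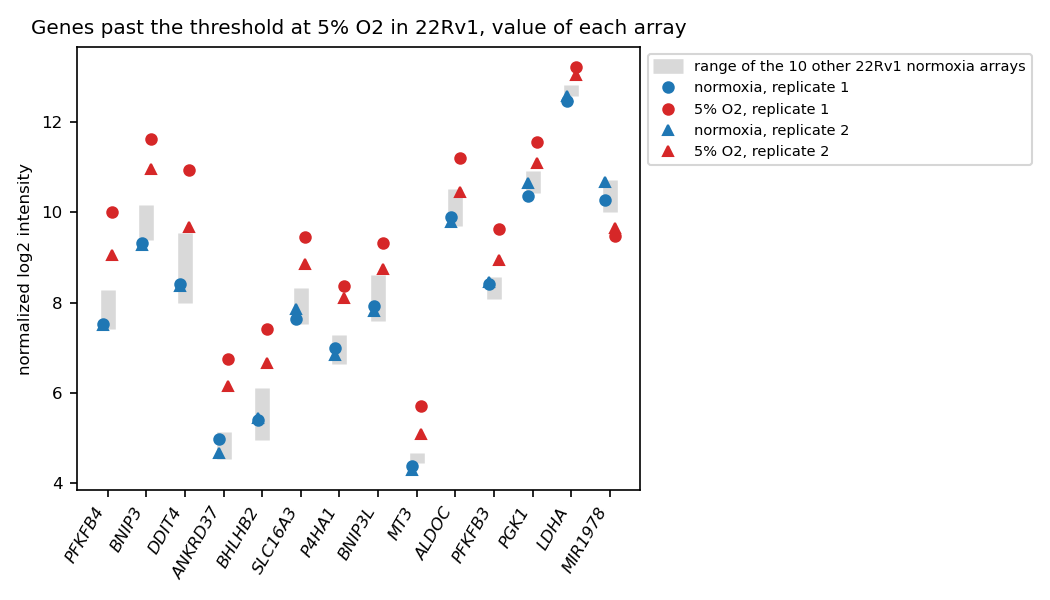
Normalized log2 intensity (vertical axis) on each array of 22Rv1 for 14 of the genes past the threshold at 5% O2, with normoxia in blue, 5% O2 in red, circles for replicate 1, triangles for replicate 2 and a grey bar for the range of the 10 normoxia arrays of the other levels. Both red points lie above both blue points for each gene but MIR1978, where they lie below, and the circle is the higher red point for each gene that rose.

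BNIP3, which tethers autophagosomes to mitochondria, gave the smallest adjusted p. It stood at 11.63 and 10.97 at 5% O2 and at 9.31 and 9.28 in normoxia. Both arrays at 5% O2 were thus well above both controls, and also above the 10 normoxia arrays of the other levels (9.39 to 10.16). The change was 2.00 (SE 0.17), or 4.01-fold, with a limma adjusted p of 3.5e-09. Its relative BNIP3L, also a mitophagy receptor, stood at 9.31 and 8.75 against 7.92 and 7.82. The groups did not overlap, and the change of 1.16 (SE 0.22) had a limma adjusted p of 0.016. Of the 16 mitophagy and autophagy genes, these 2 passed (against 0.0913% of all genes) and the list's median change was 0.02, against −0.01 over all genes. GABARAPL1, which belongs to the autophagosome coat, was 0.50 (SE 0.34).

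PFKFB4 makes and removes fructose 2,6-bisphosphate, the activator of phosphofructokinase, and had the highest fitted change. Its arrays read 10.02 and 9.05 at 5% O2 against 7.53 and 7.50, and the controls of the other levels 7.42 to 8.28. The change of 2.02 (SE 0.22) was 4.04-fold, with a limma adjusted p of 1.8e-06. The related PFKFB3 was at 9.63 and 8.94 against 8.40 and 8.45, also without overlap, a smaller change of 0.86 (SE 0.16, limma adjusted p 0.014). A dimmer PFKFB3 probe, detected on all 48 arrays, differed by 0.24.

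PGK1, which forms the first ATP of glycolysis, stood at 11.56 and 11.09 against 10.37 and 10.65, a change of 0.81 (SE 0.15, limma adjusted p 0.0079). ALDOC, a fructose-bisphosphate aldolase, stood at 11.21 and 10.46 against 9.89 and 9.79, a change of 0.99 (SE 0.21, limma adjusted p 0.039). The ALDOC array of replicate 2 at 5% O2 lay within the range of the other normoxia arrays (9.70 to 10.51). Over the 20 measured genes of glucose uptake and glycolysis, 4 rose (against 0.0852% of all genes) and 0 fell. With the replicate block 7 rose (against 0.268%). The change was above 0 for 19 of the 20 (against 47.7% of all genes), with a median of 0.29. At 2% O2, 17 of these 20 rose, against 2.85% of all genes.

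LDHA turns pyruvate into lactate and was already bright. It read 13.22 and 13.04 at 5% O2 against 12.47 and 12.57, so the groups were apart by more than their spread. The change of 0.61 (SE 0.08, limma adjusted p 7.0e-05) was the smallest among the 14 rises. A further LDHA probe, detected on all 48 arrays, differed by 0.58. A dim LDHA probe near the detection floor (5.55 against 4.94), detected on 2 of the 4 arrays, differed by 0.61. SLC16A3, the lactate exporter MCT4, stood at 9.45 and 8.86 against 7.64 and 7.85. Its change was 1.41 (SE 0.19, limma adjusted p 0.00011), a rise of 2.66-fold. No other of the 15 measured genes of pyruvate, lactate and pH control passed, and the list's median was 0.01; PDK3, a brake on pyruvate dehydrogenase, was 0.36 (SE 0.22).

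DDIT4, which restrains the growth kinase mTORC1, stood at 10.93 and 9.67 against 8.41 and 8.37. The 2 arrays at 5% O2 differed by more than 1 log2 unit, yet both exceeded all other normoxia arrays (7.99 to 9.53). The change was 1.91 (SE 0.31, limma adjusted p 0.0024). BHLHB2 (current symbol BHLHE40), a transcriptional repressor, stood at 7.41 and 6.65 against 5.40 and 5.44, a change of 1.61 (SE 0.27, limma adjusted p 0.0036). P4HA1, a catalytic subunit of collagen prolyl 4-hydroxylase, stood at 8.37 and 8.11 against 6.99 and 6.84. Its change of 1.33 (SE 0.27, limma adjusted p 0.035) was the most even of the 14 between pairs, at 1.38 and 1.27.

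ANKRD37, a small ankyrin repeat protein, was not well above background in normoxia and appeared at 5% O2. It was detected on both arrays at 5% O2 (6.75 and 6.16), on neither control, and on 0 of the 10 normoxia arrays of the other levels. Against the detection floor it was at least 2.51-fold higher, with a limma adjusted p of 0.0043. MT3, a metallothionein, was likewise detected on the arrays at 5% O2 (5.71 and 5.10) and on no 22Rv1 control of any level, at least 1.21-fold above the floor (limma adjusted p 0.0077).

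The single fall was a probe named MIR1978, a symbol without a match in the current gene table. It read 9.48 and 9.64 against 10.28 and 10.68, a change of −0.92 (SE 0.19, limma adjusted p 0.031).

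The promoters of the 5 genes that rose most are shown because HIF is known to bind elements with the core ACGTG or GCGTG, searched here on both strands. RefSeq's promoter table (GRCh38.p14) held 11 of the 14 genes that rose. Each sequence runs 5′ to 3′ on the gene's strand, from 250 bases before to 50 bases after the gene's start, and capitals mark each match on either strand. The windows are PFKFB4 at chr3:48556754-48557053 (minus strand), BNIP3 at chr10:131981874-131982173 (minus), DDIT4 at chr10:72273674-72273973 (plus), ANKRD37 at chr4:185396591-185396890 (plus) and BHLHE40, the array's BHLHB2, at chr3:4979187-4979486 (plus).
PFKFB4: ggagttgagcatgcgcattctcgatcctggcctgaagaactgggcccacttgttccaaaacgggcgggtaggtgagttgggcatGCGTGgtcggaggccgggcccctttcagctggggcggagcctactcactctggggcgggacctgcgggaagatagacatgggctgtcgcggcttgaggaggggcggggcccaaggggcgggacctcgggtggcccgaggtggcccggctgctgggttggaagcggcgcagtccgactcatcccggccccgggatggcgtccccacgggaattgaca
BNIP3: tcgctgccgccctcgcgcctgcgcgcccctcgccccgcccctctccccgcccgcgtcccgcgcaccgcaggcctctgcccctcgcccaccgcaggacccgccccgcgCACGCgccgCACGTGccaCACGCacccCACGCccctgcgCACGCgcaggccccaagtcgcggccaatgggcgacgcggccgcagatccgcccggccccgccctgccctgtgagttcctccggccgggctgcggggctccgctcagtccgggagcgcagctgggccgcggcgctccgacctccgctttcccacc
DDIT4: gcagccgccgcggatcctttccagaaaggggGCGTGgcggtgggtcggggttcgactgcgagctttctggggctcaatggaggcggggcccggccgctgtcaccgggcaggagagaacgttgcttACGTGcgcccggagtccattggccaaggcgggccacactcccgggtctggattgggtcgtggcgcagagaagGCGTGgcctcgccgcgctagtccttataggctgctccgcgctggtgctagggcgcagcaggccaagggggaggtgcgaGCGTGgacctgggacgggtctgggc
ANKRD37: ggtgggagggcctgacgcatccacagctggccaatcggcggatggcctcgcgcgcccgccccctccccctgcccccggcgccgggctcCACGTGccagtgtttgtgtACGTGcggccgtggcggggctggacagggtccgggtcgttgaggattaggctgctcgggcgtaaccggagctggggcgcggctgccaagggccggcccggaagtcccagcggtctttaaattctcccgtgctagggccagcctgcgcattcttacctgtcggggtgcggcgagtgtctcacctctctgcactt
BHLHE40: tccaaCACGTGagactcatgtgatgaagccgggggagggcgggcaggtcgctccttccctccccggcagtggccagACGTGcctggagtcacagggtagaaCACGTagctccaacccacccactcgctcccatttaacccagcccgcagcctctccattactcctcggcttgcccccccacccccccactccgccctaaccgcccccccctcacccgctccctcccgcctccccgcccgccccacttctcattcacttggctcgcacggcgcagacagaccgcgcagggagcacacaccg
PFKFB4 held 0 ACGTG and 1 GCGTG, BNIP3 held 2 and 4, DDIT4 held 1 and 3, ANKRD37 held 3 and 0, and BHLHE40 held 4 and 0. ACGTG matches on opposite strands overlap where the letters are CACGTG, as in BNIP3, ANKRD37 and BHLHE40. Of all 27305 genes with a promoter in the table, 24.9% held ACGTG, 40.6% GCGTG and 52.4% either in at least 1 window. Of the genes tested, 10074 were matched to the table, and of these 32.2% held ACGTG, 57.7% GCGTG and 69.3% either. A match describes the letters only; binding was not measured.

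The 26 other measured members of the HIF target list did not pass, and all but CA9, PPP1R3C and RAB20 were above 0. The counts and medians that follow cover all 38 measured members, the 12 that passed included. Of the 38, 35 were above 0 (against 47.7% of all genes). The median change was 0.76, with or without setting at their bound the 4 members detected at 5% O2 and on neither control. The groups did not overlap and 5% O2 was higher for 31 (81.6%), against 15.5% of all genes. With the replicate block 19 rose (against 0.268% of all genes), which adds 7 to the 12. The median was 1.03 in the replicate 1 pair and 0.49 in the replicate 2 pair.

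Those 7 had no call without the block. HK2, which phosphorylates glucose, stood at 8.53 and 7.83 against 7.18 and 6.99, a change of 1.10 with a limma adjusted p of 0.18, or 0.0017 with the block. A dimmer HK2 probe, detected on all 48 arrays, differed by 0.31. NDRG1, a stress-responsive gene, stood at 9.18 and 8.27 against 7.40 and 7.44, a change of 1.31 with a limma adjusted p of 0.30, or 0.0017 with the block. The glucose transporter SLC2A1 stood at 8.69 and 8.03 against 7.49 and 7.45, a change of 0.89 (limma adjusted p 0.17, 0.0042 with the block). In all 3 the groups were apart, and the array of replicate 1 was the higher. The vasodilator peptide ADM (1.11), the lysyl hydroxylase PLOD2 (0.62) and the histone demethylase JMJD1A (current symbol KDM3A; 1.15) had limma adjusted p-values of 0.019 to 0.041 with the block. PPFIA4 was detected only at 5% O2, at least 1.89-fold above the floor (0.014 with the block).

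VEGFA, the main angiogenic factor, stood at 7.57 and 7.19 against 6.80 and 6.85. The groups did not overlap, but the change of 0.56 (SE 0.30) had a limma adjusted p of 1.0, and 0.43 with the block. ANGPTL4, a lipase inhibitor, was 0.63 (SE 0.37), and FAM162A, a mitochondrial protein, 0.72 (SE 0.60). The collagen hydroxylase P4HA2 was 0.56 (SE 0.25), the hormone STC2 0.49 (SE 0.16), ANKZF1 0.81 (SE 0.30) and the oxidoreductase ERO1L (now ERO1A) 0.46 (SE 0.28). The mitochondrial NDUFA4L2 (now COXFA4L2) split between pairs, at 6.73 and 5.30 against 4.96 and 5.10, and MXI1, a MYC antagonist, was detected only at 5% O2 (5.30 and 5.27).

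Lower still were INSIG2, a sterol sensor partner (0.35), the aldolase ALDOA (0.34), the enolase ENO1 (0.28) and the glycogen branching enzyme GBE1 (0.24). WSB1, a ubiquitin ligase part, was 0.18 and C7orf68 (now HILPDA), a lipid droplet protein, 0.16. A dimmer WSB1 probe, detected on all 48 arrays, differed by 0.51. CA9, the carbonic anhydrase often used as a hypoxia marker, was detected on none of the 4 arrays, and neither were RAB20 and PPP1R3C. EGLN3 and PDK1 were not among the genes tested.

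**Figure D2:**
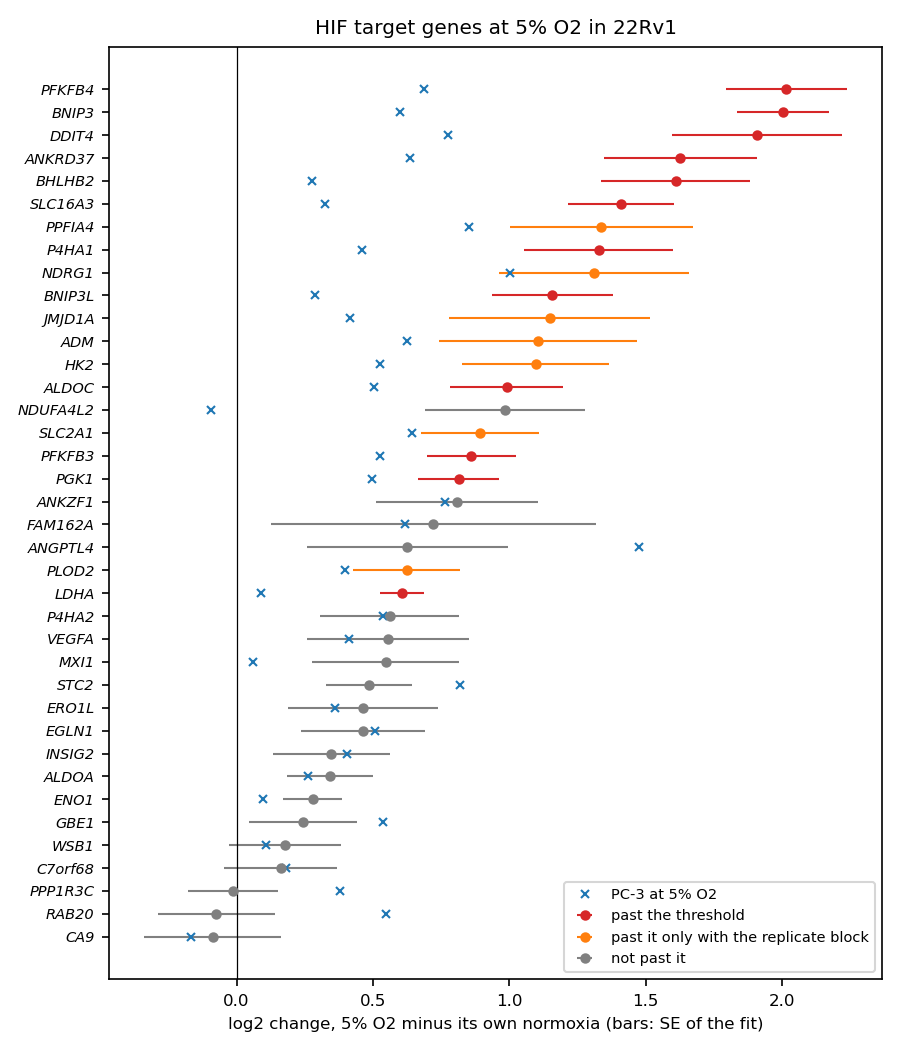
Log2 change at 5% O2 minus normoxia (horizontal axis) of the 38 measured HIF target genes in 22Rv1, with bars for the SE of the fit and blue crosses for PC-3 at 5% O2. Red marks the 12 genes past the threshold, orange the 7 that passed only with the replicate block, and 35 of the 38 points lie above 0.

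Of the 15 measured genes of the machinery that senses oxygen, none passed by limma, against 0.0913% of all genes. With the block none passed either, against 0.268% higher and 0.0365% lower over all genes. With shares this low, 0 calls say little about a list of this size. The median change was 0.00, and at 5% O2, 728 of all genes had an unadjusted p under 0.05. HIF1A stood at 6.44 and 6.27 against 6.60 and 6.65, a change of −0.27 (SE 0.21). EPAS1, which encodes HIF-2 alpha, was detected on both controls (5.50 and 5.40) and on neither array at 5% O2. The partner ARNT was −0.15 (SE 0.24) and ARNT2 −0.27 (SE 0.21), and HIF3A was not detected on the 4 arrays. EGLN1, itself a HIF target, stood at 7.16 and 6.92 against 6.77 and 6.38, a change of 0.46 (SE 0.23), while EGLN2 was −0.04 (SE 0.11). The ubiquitin ligase part VHL was 0.26 (SE 0.14) and the asparaginyl hydroxylase HIF1AN 0.09 (SE 0.20). CITED2, which competes with HIF for its coactivators, was 0.37 (SE 0.20), the coactivators EP300 −0.25 and CREBBP 0.13, the ligases SIAH1 −0.03 and SIAH2 0.00, and the chaperone HSP90AA1 0.02.

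The hypoxia genes of 22Rv1 were defined next, to ask how much of the full response was present at 5% O2. Their definition used the changes at 2, 1, 0.5 and 0.2% O2, with the variance of the fit to all 48 arrays. A gene entered when its mean log2 change over these levels was at least 1, passed the threshold and was above 0 at each level, which 339 genes did. At 5% O2, 14 of them rose (4.13%, against 0.0852% of all genes), all 14 rises of that level, and 0 fell. With the replicate block 38 rose (against 0.268% of all genes). The change was above 0 for 308 (90.9%, against 47.7% of all genes), and the groups did not overlap for 197 (58.1%, against 15.5%).

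The size of these changes was small. The median was 0.31 (quartiles 0.15 and 0.55), or 0.28 with the 28 genes detected at 5% O2 and on neither control set at their bound, against −0.01 over all genes. In the replicate pairs it was 0.45 and 0.20, and the first pair was the larger in 262 of the 339. As a share of the mean change at the 4 lower levels, the 5% change had a median of 22.3% (quartiles 10.7 and 33.7%). It reached at least 50% for 17 genes, 25 to 50% for 131 and less for 160, and was at or below 0 for 31. At 2% O2, which helped to choose them, the median change was 0.99 and 238 of the 339 rose, against 2.85% of all genes. Across the 339 genes the 5% change had a Spearman correlation of 0.64 with the change at 2%, given as a description, since genes share the arrays and 2% helped to choose them.

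Among the hypoxia genes detected on all 4 arrays, BNIP3 had one of the 6 highest shares, 65.8%, and LDHA another, 58.3%. The other 4 did not pass at 5% O2. NARF, a nuclear lamin-binding protein, stood at 9.09 and 8.75 against 8.32 and 8.10, a change of 0.71 (limma adjusted p 0.18, 0.0021 with the block). MST1, a growth factor with near-identical copies, stood at 9.31 and 8.74 against 8.36 and 7.80, a change of 0.94 (limma adjusted p 0.57, 0.0078 with the block). The zinc finger genes ZNF160 and RLF were 0.68 and 0.64. At the other end, NAV1, SIK1, CYB5R2, HPN, KLHL35 and HSPC047 lay between −0.25 and −0.08 at 5% O2 and between 0.49 and 1.01 at 2%.

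**Figure D3:**
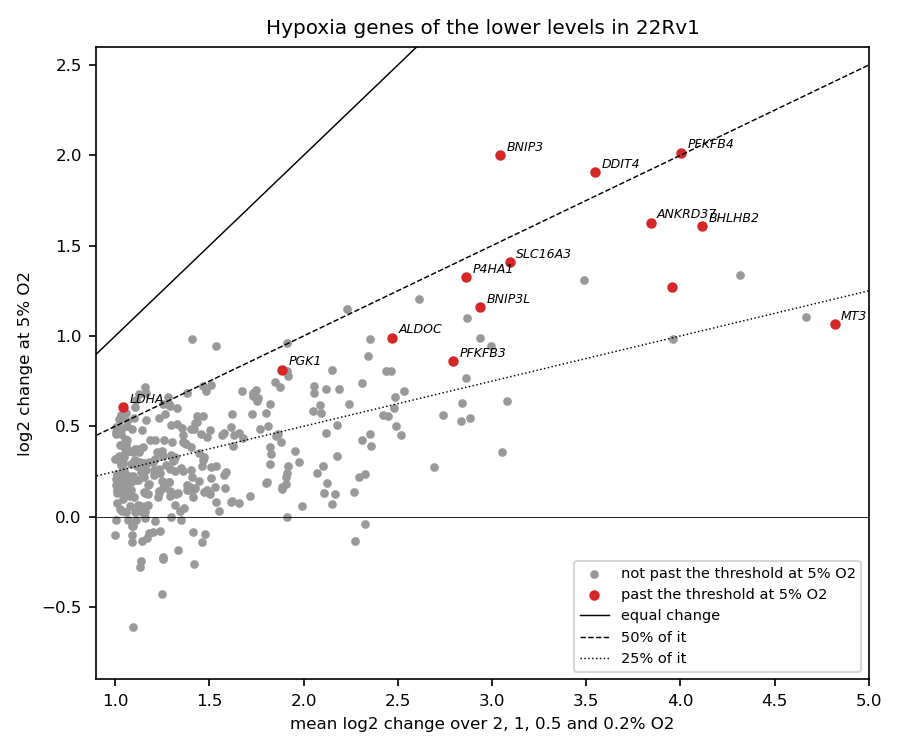
Log2 change at 5% O2 (vertical axis) against the mean log2 change over 2, 1, 0.5 and 0.2% O2 (horizontal axis) for the 339 hypoxia genes of 22Rv1, red for the 14 past the threshold at 5%. Lines mark an equal change, 50% and 25% of it, and every point lies below the line of equal change. The red points above the 50% line are BNIP3 (65.8%), LDHA (58.3%), DDIT4 (53.8%) and PFKFB4 (50.3%), among 17 genes that reach 50%.

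**Figure D4:**
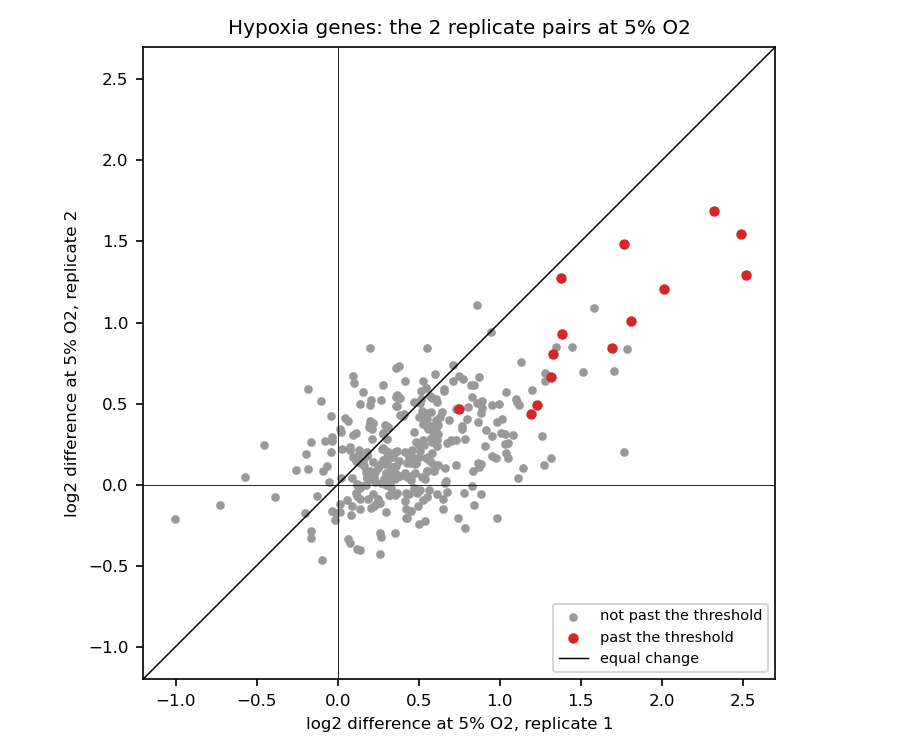
Log2 difference between 5% O2 and normoxia in replicate 1 (horizontal axis) and replicate 2 (vertical axis) for the same 339 genes, red for the 14 past the threshold. Of the points, 262 lie below the line of equal change, the 14 red ones among them.

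Genes that fell at the lower levels were defined the same way downward. Of these 101, 1 fell at 5% O2 (against 0.00608% of all genes), MIR1978, and their median was −0.20. The groups did not overlap and 5% O2 was lower for 55 (54.5%, against 19.1% of all genes). At 2% O2, which helped to choose them, 33 of the 101 fell, against 1.28% of all genes.

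The step from 5% to 2% O2 was then tested directly, as the difference between both changes, each against its own controls. It passed for 13 genes (0.0791%), all with the larger change at 2%. With the replicate block 56 passed. ADM, with a change of 1.11 at 5% and 3.72 at 2%, had a difference of 2.62 (SE 0.51, limma adjusted p 0.029). PFKFB4 rose by a further 1.65 (SE 0.31, limma adjusted p 0.023), PFKFB3 by 1.53 (SE 0.23, limma adjusted p 0.0015) and SLC16A3 by 1.43 (SE 0.27, limma adjusted p 0.023). MT3, PPFIA4 and MGAT3, an enzyme that modifies N-glycans, had no detected normoxia array at 2%. At that level these genes were at least 8.29-fold, 9.23-fold and 2.75-fold above the floor (limma adjusted p of the difference 1.4e-06, 0.032 and 0.047). NDUFA4L2, detected on 1 control of 2% and on neither of 5%, passed as well (limma adjusted p 0.013).

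Other genes changed at 5% O2 without a called difference from 2%. BNIP3 was 2.00 and 2.77, a difference of 0.77 (SE 0.24, limma adjusted p 0.49). LDHA was 0.61 and 0.97, a difference of 0.36 (SE 0.11, limma adjusted p 0.51). DDIT4 differed by 1.54 (SE 0.44, limma adjusted p 0.39, 0.011 with the block) and P4HA1 by 0.93 (SE 0.39, limma adjusted p 0.80, 0.037 with the block). These intervals are wide and do not show that the changes were equal: all 38 measured HIF targets had the larger fitted change at 2%, where 33 rose (against 2.85% of all genes) and the median was 1.79.

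At each level below 2% the fitted change of all 14 genes was larger than at 2%. BNIP3 was 3.18 at 1%, 2.96 at 0.5%, 3.26 at 0.2% and 3.64 at 0% O2. PFKFB4 was 4.07, 4.0, 4.29 and 4.94 at the same levels. LDHA was 1.02, 1.14, 1.04 and 1.21. Of the 12 rises with detected controls, the change at 5% O2 was between 30.8% (PFKFB3) and 65.8% (BNIP3) of the mean over 2 to 0.2%.

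**Figure D5:**
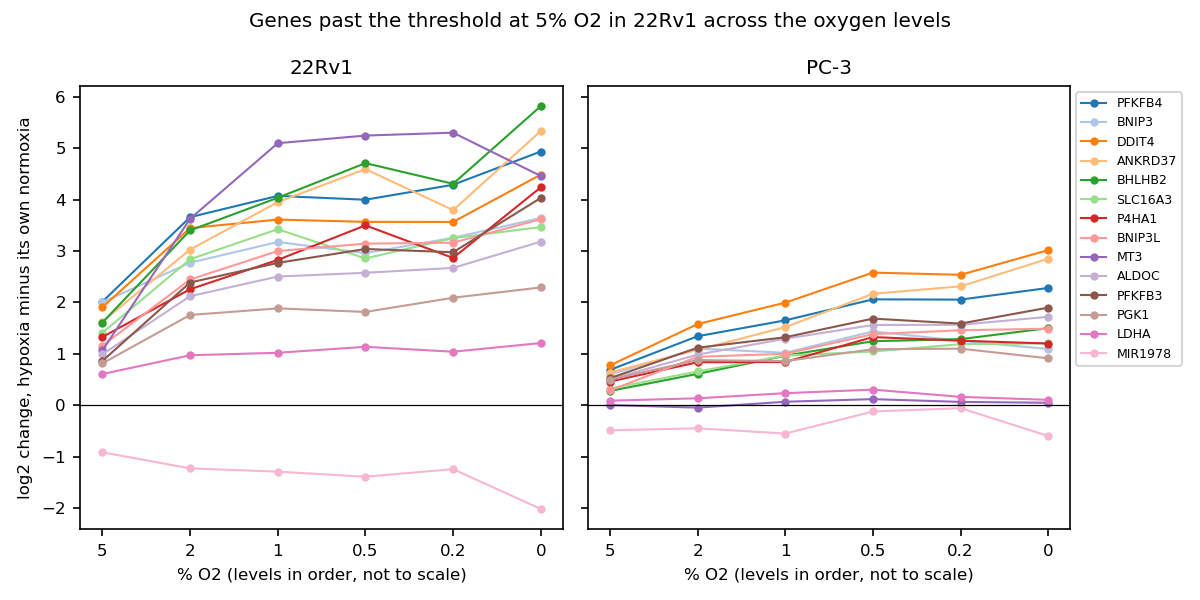
Log2 change against each level's own normoxia (vertical axis) at 5, 2, 1, 0.5, 0.2 and 0% O2 (horizontal axis, in order and not to scale) for 14 of the genes past the threshold at 5% O2 in 22Rv1, with 22Rv1 on the left and PC-3 on the right. In 22Rv1 BNIP3 goes from 2.00 at 5% to 2.77 at 2%, and LDHA from 0.61 to 0.97.

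The same oxygen level in PC-3 gave 1 called gene, COL7A1 (0.00608%), and 682 genes had an unadjusted p under 0.05. COL7A1 changed by 1.51 in PC-3 (SE 0.21, limma adjusted p 0.00067) and by 0.73 in 22Rv1, with no called difference. The difference between the lines passed for 1 gene (0.00608%), BNIP3. Its change was 2.00 in 22Rv1 and 0.60 in PC-3, a difference of 1.40 (SE 0.24, limma adjusted p 0.021). The lines started apart: BNIP3 averaged 11.52 in PC-3 normoxia and 9.30 in 22Rv1 normoxia. PC-3 in normoxia was thus already above 22Rv1 at 5% O2 (11.30), and PC-3 at 5% O2 was at 12.12. The part of the higher start in this difference was not tested. Both 22Rv1 pairs (2.32 and 1.69) were well above the PC-3 change. With the replicate block PFKFB4 passed too, at 2.02 and 0.69 (limma adjusted p 0.018, against 1.0 without it). The median change of the 38 HIF targets was 0.76 in 22Rv1 and 0.50 in PC-3, where 0 rose. Fitted changes were higher in PC-3 for 8 of the 38, ANGPTL4 (1.48 against 0.63) and STC2 (0.82 against 0.49) among them, with no called difference.

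The BNIP3 difference between the lines was not past the threshold when any of the 8 arrays compared was left out, except the 22Rv1 array of replicate 2 at 5% O2, without which 4 genes passed.

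Beyond the HIF targets, the metallothioneins, which bind zinc and copper, had 1 called gene, MT3. Of 10 measured genes of this list, which includes their regulator MTF1, it rose (against 0.0852% of all genes) and 0 fell. The list's median was −0.50. For 8 of the 10 the groups did not overlap and 5% O2 was lower, against 19.1% of all genes. MT2A stood at 8.81 and 8.42 against 9.62 and 9.10, a change of −0.74 (SE 0.18, limma adjusted p 0.16, 0.0036 with the block). MT1X stood at 8.89 and 8.94 against 9.78 and 9.54, also −0.74 (limma adjusted p 0.44). Both lay lower at 5% O2 on every array, but the coding sequences of this family are close and probes may read several members. At 2% O2, 4 members fell, against 1.28% of all genes, and the median was −0.95.

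Of 13 genes that brake mTORC1 and growth, 1 rose (DDIT4), and of 17 transcription factors and histone demethylases, 1 rose (BHLHB2), against 0.0852% of all genes. The list medians were 0.11 and 0.17. Of 17 secreted and angiogenic factors 0 passed by limma (against 0.0913% of all genes). With the block 2 rose (against 0.268% of all genes), and the median was 0.22.

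The 34 DNA replication genes had 0 calls in limma (against 0.0913% of all genes) and a median of −0.18. Of the 34, 20 (58.8%, against 19.1% of all genes) lay lower at 5% O2 without overlap. RRM2, a subunit of ribonucleotide reductase, stood at 6.88 and 7.14 against 7.54 and 7.83, a change of −0.67 (SE 0.32, limma adjusted p 1.0). The cyclin CCNE2 was −0.42 and TIPIN, a fork protection factor, −0.38. At 2% O2, 10 of the 34 fell, against 1.28% of all genes, and the median was −0.60. Of 21 mitosis genes none passed (against 0.0913% of all genes), with a median of −0.17, CENPE at −0.39 and CCNA2 at −0.30.

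Collagen and matrix enzymes had 1 rise, P4HA1, among 13 genes, and 4 with the block, against 0.0852% and 0.268% of all genes. PLOD1, a collagen lysyl hydroxylase, stood at 10.38 and 9.86 against 9.40 and 9.48, a change of 0.68 (limma adjusted p 0.13, 0.0025 with the block), and COL7A1 was 0.73 (0.038 with the block). In PC-3 the COL7A1 change at 5% O2 was larger, 1.51 (limma adjusted p 0.00067). None of the 10 measured epithelial and prostate markers passed by limma (against 0.0913% of all genes), and their median change was 0.23. KLK2, a prostate kallikrein, stood at 5.89 and 6.18 against 5.63 and 5.45, a change of 0.49 (SE 0.19), and SLC45A3 was 0.41 (SE 0.26).

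In 9 further lists no gene passed by limma, with or without the block. Over all genes 0.0913% passed without it, and 0.268% higher and 0.0365% lower with it. With shares this low, 0 calls say little about lists of this size. The list medians lay between −0.07 and 0.08. The 9 lists were the genes of glycogen metabolism (9), mitochondrial adaptation (8), lipid storage (14), iron handling (10), protein folding stress (16), the respiratory chain (25), ribosome biogenesis (19), immediate early genes (17) and p53 targets (14). Among them were PYGL, glycogen phosphorylase, at 0.72 (SE 0.27), TFRC, the transferrin receptor, at 0.25 (SE 0.11), and MDM2, a p53 target, at 0.61 (SE 0.24).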

How the data were processed

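Total RNA was read on Illumina bead arrays. Each deposited intensity is a mean over a probe's beads, with a deposited detection p-value beside it, and BeadStudio 3.1.3.0 is the software given in the submitters' processing notes. The columns of this table carry A and B, read as replicates 1 and 2. A second deposited table of linear intensity values has an unstated normalization; its columns have nearly equal distributions and follow the ranks of the bead intensities. It served as an alternative: 46 arrays matched by label between the tables and 2 were exchanged (22Rv1 replicate 2 at 0.2% O2), none of them at 5% O2. Array medians were 84.2 to 117, and the number of arrays limits the precision.

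From the deposited intensities, background was removed by normexp (limma 3.58.1, offset 16, with R 4.3.3 and the data.table package, version 1.17.8), the negative control level being taken from the detection p-values, whose steps imply 770 controls. Quantile normalization and log2 followed. Probes detected (p under 0.01) on at least 2 arrays were kept, and the brightest represented each symbol. Of 47323 probes 3270 had no symbol. Of the 16438 symbols tested, 11119 were current and 2030 were reached by a synonym. The linear model held a mean for each of 24 groups (24 residual degrees of freedom), with moderated variances, a variance trend and Benjamini-Hochberg adjustment. Bounds ("at least") set a group with no detected array at the higher of the detection floor and its own value. Same-numbered deviations from group means correlated in every level of PC-3 (0.326 to 0.471) and of 22Rv1 (0.180 to 0.447), all over 0.1, so the numbers were taken to pair the arrays and a replicate block by pair was run. Data were also simulated for 22Rv1 at 5% O2, with independent noise on each array at the variance of the fit. The correlation of same-numbered arrays was not built in. Over 16438 genes, 78% of log2 changes of 1 and 100% of those of 2 were recovered, with 11 false calls. These values describe that setting and do not give the power or error rate of the real comparison.

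Named are all genes past the threshold at 5% O2, all measured HIF targets and oxygen sensing genes, members with the largest changes of the other lists, the 6 largest differences between 2% and 5% and between the lines, and the hypoxia genes with the 6 highest and 6 lowest shares; unannotated symbols were passed over, and some genes and 1 list are not reported here. The genes, lists and comparisons were chosen with earlier results of these data known. Figures used Python 3.11.15, pandas 2.3.3 and matplotlib 3.10.9.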

Additional observations from a re-analysis of the deposited data

Results flagged for a closer look

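The change of BNIP3 at 5% O2 differed between the lines in a direct test of the difference. It was 2.00 in 22Rv1 and 0.60 in PC-3, a difference of 1.40 (SE 0.24, limma adjusted p 0.021), and both 22Rv1 pairs showed the larger change. PC-3 started higher, at a normoxia mean of 11.52 against 9.30 in 22Rv1. The cause was not tested.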

How the results depend on the processing

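The 15 genes called at 5% O2 became 8 without background correction, 2 with median centring, 0 with the submitters' normalized table, 2 on the 22Rv1 arrays alone, 0 on the compared arrays alone, 126 against the 12 pooled controls, 50 with the replicate block and 0 with the 2 doubted arrays exchanged. They were 3 to 35 with 1 of the 4 arrays left out. The 13 differences between 2% and 5% O2 became 0 with the normalized table, 1 on 22Rv1 alone, 0 on the compared arrays, 142 with pooled controls, 56 with the block, 5 without the variance trend, 23 with array weights, 27 without the doubted arrays and 0 with them exchanged (1 to 28 with 1 array left out). The single difference between the lines became 0 with median centring, the normalized table, the compared arrays alone, pooled controls, no variance trend or the exchange, and 2 with the block (0 to 4 with 1 array left out). The 14 hypoxia genes that rose became 7 without background correction, 2 with median centring, 0 with the normalized table, 9 with the mean of probes, 2 on 22Rv1 alone, 2 on the compared arrays, 52 with pooled controls, 38 with the block and 0 with the exchange (3 to 25 with 1 array left out, 3 without the 22Rv1 array of replicate 1 at 5% O2). Otherwise the 4 counts stayed within 1.5 times. The cause was not tested, except that a fit on the compared arrays has fewer samples. The normalized table holds the 2 doubted arrays under exchanged labels, so its counts do not separate the normalization from the labels. BNIP3 and PFKFB4 passed under 15 of 18 alternatives, all but the normalized table, the compared arrays alone and the exchange. No named gene that passed changed direction under any alternative run. For the 15 genes called at 5% O2 this was partly fixed in advance. The block, the exchange and the fits on fewer groups leave the fitted change as it was. With groups that do not overlap, leaving out 1 array cannot reverse it. Dim probes such as MT3 are compressed toward background, and 2 arrays a group limit what can be called.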
